A study of Mus musculus with 8 samples.

Results

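The Krt20 colonocytes of colon assembloids were 3902 cells, 2538 from replicate 1 and 1364 from replicate 2 of the assembloid epithelial libraries. They were chosen by their own reads. A cell barcode was kept if it held at least 500 genes, at least 2000 unique molecular identifiers (UMIs, each a counted transcript) and at most 10% mitochondrial UMIs. It then had to hold at least 1 UMI of Epcam, the epithelial cell adhesion molecule, and at least 2 of Krt20. Cells with 0.3% or more of their UMIs from the goblet genes Muc2 and Spink4, or with more than 1 UMI of the fibroblast genes Col1a1 and Col1a2, were left out. The 3902 cells made up 13.4% of the 29222 cells of these libraries that met the quality limits, and 6.31% of the 61798 such cells of the whole series. They were compared with the 19634 cells of the same libraries that held Epcam and no Krt20 UMI (15151 and 4483), called Krt20-0 cells here. The gate itself used Krt20, Epcam, Muc2, Spink4, Col1a1 and Col1a2, so those 6 genes were given no test.

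The series held 8 single-cell RNA libraries of the mouse colon: 2 each of assembloid epithelium, assembloid stroma, organoid epithelium and tissue epithelium. All cells came from male C57BL/6 mice 6 to 12 weeks old, and cells were captured with 10x Single Cell 3′ chemistry, version 3. An assembloid joins an epithelial organoid with pre-cultured primary colon stromal cells in a Matrigel droplet on an orbital shaker. The assembloids were kept without surrogate Wnt, CHIR-99021, R-spondin 1 and noggin, and their cells were released with Liberase TL and DNase I and then TrypLE. Organoids were epithelium alone in full medium with those 4 factors, released with TrypLE. Tissue epithelium came from crypts freed with EDTA and then treated with TrypLE. Culture, medium and the way of freeing the cells thus changed together between assembloids and tissue and cannot be told apart. The labels name no animal for a library, so the p-values below measure only the spread between these samples.

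Colonocytes are the absorptive cells of the large intestine. They arise from dividing cells in the lower crypt, stop cycling as they move up, and at the surface take up salt, water and short-chain fatty acids through transporters in a brush border of microvilli. Krt20 is a keratin of the intermediate filaments of the upper crypt and surface epithelium and is used to mark differentiated cells. Carbonic anhydrases supply bicarbonate and protons to the exchangers of these cells, and guanylin, the product of Guca2a, is a peptide ligand for guanylate cyclase C that governs fluid secretion.

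The markers set for colonocytes were not all at a high level in these cells. Levels are given as counts per 1000000 UMIs (CPM). Lypd8, Car1 and Vil1 were read in both libraries, Vil1 at 199 and 199 CPM, whereas Car4 was at 7.70 and 3.67 CPM. All of these were also read in Krt20-0 cells, at lower levels that are given below. The median cell held 9707 and 17898.5 UMIs in replicates 1 and 2, against 4140 and 13810 in the Krt20-0 cells. The part of the gate's UMI count in this gap was not tested. Its median mitochondrial share was 2.93% and 4.21%, against 6.64% and 7.70% in the cells of tissue that passed the same gate. Summed UMIs came to 27921114 and 27547099. The 2 assembloid libraries had 134 cell barcodes in common, 1 of them inside the gate in both.

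Markers of other cells were low but not at 0. The goblet list, 15 genes outside the gate, summed to 566 and 507 CPM, against 1724 and 3670.1 CPM in Krt20-0 cells. Fibroblast genes, 11 in all, summed to 92.8 and 35.0 CPM against 726 and 1060.05 CPM. The 12 macrophage and other immune genes summed to 88.6 and 108 CPM against 232 and 600.1 CPM, with 3 of them at 0 in each library. These 3 lists were lower in the Krt20 cells than in the Krt20-0 cells, the goblet and fibroblast lists by construction of the gate. The enteroendocrine list went the other way in replicate 2, with 104 and 537 CPM in the Krt20 cells of replicates 1 and 2 against 103 and 194 CPM. Tuft cell genes stood at 8.99 and 7.04 CPM and squamous genes at 6.77 and 4.07 CPM in sum. Enteroendocrine-like cells had at least 0.3% of their UMIs from Chga, Chgb, Neurod1, Pyy, Gcg, Tph1 and Insl5 of this list. Such cells also passed the gate: 5 in replicate 1 and 18 in replicate 2, 0.197% and 1.32% of the members. Those few cells held 79.2% and 96.9% of the members' UMIs of these genes, by which they had been chosen. In tissue the same gate let through 26 and 33 such cells, 6.33% and 7.33%.

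Krt20 and Slc26a3, the chloride and bicarbonate exchanger of the colonocyte brush border, are shown by the 250 bases before their RefSeq start sites (build GRCm38.p6), because the rule rests on the first and the second rose with Krt20 in assembloids but was far below its tissue level. The pair was chosen after the values were seen. Capitals mark 3 short motifs searched on both strands. The TATA motif, letters TATAAA, was held by 12.37% of 32851 mouse promoter windows of this length. The HNF4 half-site, letters CAAAG, was held by 48.58%. The GATA core, letters AGATAA, was held by 9.988%. The windows run 5′ to 3′ on the gene's strand. The Krt20 window is chr11:99438154-99438403 on the minus strand, with 1 GATA core (in reverse complement) and 1 TATA motif. That of Slc26a3 is chr12:31437969-31438218 on the plus strand, with 1 HNF4 half-site and 1 TATA motif. Krt20 itself spans chr11:99428403-99438150 in the GENCODE annotation M21 of the same build, and Slc26a3 spans chr12:31390871-31473917 there, so that its RefSeq start lies within the annotated gene.
Krt20: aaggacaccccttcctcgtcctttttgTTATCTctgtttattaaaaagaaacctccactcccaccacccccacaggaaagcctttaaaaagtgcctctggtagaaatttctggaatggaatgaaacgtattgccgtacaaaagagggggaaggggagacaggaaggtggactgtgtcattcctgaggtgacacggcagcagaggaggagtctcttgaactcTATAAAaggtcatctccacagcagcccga
Slc26a3: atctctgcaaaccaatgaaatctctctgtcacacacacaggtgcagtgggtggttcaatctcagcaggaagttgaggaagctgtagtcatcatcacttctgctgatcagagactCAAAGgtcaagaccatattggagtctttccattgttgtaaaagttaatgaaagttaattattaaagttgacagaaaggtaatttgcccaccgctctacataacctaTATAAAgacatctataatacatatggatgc
A match of so few letters describes the window and is not a bound site. The window of Aqp8, a water channel of the same cells, at chr7:123462044-123462293 on the plus strand, held none of the 3.

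The gate took 11.7% of the Epcam cells of assembloid replicate 1 (95% exact binomial interval 11.2 to 12.1%) and 20.4% of those of replicate 2 (19.4 to 21.4%). In tissue it took 16.9% and 16.4%, between the 2 assembloid values, and in organoids 0.294% and 0.220%, which were 14 and 10 cells. In the stromal libraries it took 1 cell and 0 cells. The median depth differed between the 2 assembloid libraries as given above. When each cell was thinned to 2000 UMIs, 13.4% and 12.1% of the assembloid cells held at least 1 Krt20 UMI, against 10.8% and 11.9% in tissue and 0.168% and 0.0880% in organoids. With the gate's own limit of at least 2 Krt20 UMIs kept after thinning, an alternative chosen after seeing the data, the shares were 3.14% and 4.23% in assembloids, 4.93% and 5.42% in tissue and 0.0421% and 0.0440% in organoids. Both assembloid libraries then lay below both of tissue, whereas with at least 1 UMI they lay above both, and organoids were lowest at either limit. With 2 libraries a group, a two-sided exact permutation test cannot go below p = 0.33, and no test was made.

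Many members stood near the threshold. Krt20 had a median of 3 UMIs a cell in replicate 1 and 5 in replicate 2, with a highest cell at 44 and 62. Exactly 2 UMIs were held by 40.0% and 20.7% of the members. Cells at 2 UMIs, just inside, had 1954 and 3163 CPM of Car1 (replicates 1 and 2), and cells at 1 UMI, just outside, 1174 and 1392. The corresponding pairs for Tmigd1, an adhesion receptor of enterocytes, were 49.4 and 50.4 against 27.7 and 13.2 CPM. For Mki67, which marks cycling cells, they were 64.3 and 43.5 against 94.2 and 96.1 CPM. The cells just outside thus had less of the colonocyte genes and more of the cycling gene, and the gate cut through a range of levels.

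To describe which genes went with Krt20, UMIs were summed per library and class and Krt20 cells were compared with Krt20-0 cells of the same library, with the library as a block. Of 17301 genes tested with edgeR's quasi-likelihood test, 7106 (41.1%) passed an adjusted p of 0.05, 3504 higher in Krt20 cells (20.3% of all tested) and 3602 lower (20.8%). The median change over all genes was -0.07 on the log2 scale. Scaling by library size alone moved that median to -0.43 and the share of higher genes among the called from 49.3% to 18.7%, so directions are given only for genes that kept theirs under both. Changes are log2 values ± standard error. The standard error is approximate, being the absolute change divided by the square root of the test's F value.

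All 24 genes of a core colonocyte list were higher in Krt20 cells, with a median log2 change of 2.31, and 22 of 24 passed when scaled by library size. The list was chosen with earlier results of these data known, so its count is a description and not a test of what the cells are. Lypd8, a protein of colonocytes that binds bacterial flagella, was at 2738 and 3574 CPM in Krt20 cells against 842 and 911 in Krt20-0 cells (2.20 ± 0.20, adjusted p = 0.000654). Car1, carbonic anhydrase 1, stood at 3442 and 5662 CPM against 586 and 423. Both genes were higher in each library without overlap of the classes, and Car1 rose by 3.51 ± 0.35 (adjusted p = 0.000837). The Car1 value depended on the library, being 4.15 without assembloid replicate 1 and 2.77 without replicate 2. In these and all later fits without a library, the group concerned had 1 library, which was assumed to vary like those of the other group.

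Some of the steepest changes were in genes of low level. Tmigd1 was at 116 and 115 CPM against 12.1 and 3.61 (4.40 ± 0.45, adjusted p = 0.000890). Aqp8, the water channel, was at 75.2 and 78.6 CPM against 7.47 and 3.41 (4.23 ± 0.53, adjusted p = 0.00165). Replicate 2 carried the steeper fall to the Krt20-0 cells in both: without replicate 1 the changes were 5.41 and 4.94, and without replicate 2 3.48 and 3.54. Clca4a, of the calcium-activated chloride channel regulator family, stood at 204 and 148 CPM against 22.1 and 7.56 (4.07 ± 0.30). The acute phase gene Saa1 was at 332 and 193 CPM against 41.6 and 10.5 (3.93 ± 0.54). Both passed the test with adjusted p of 0.000481 and 0.00219, and both were steeper without replicate 1 (4.70 and 4.61) than without replicate 2 (3.42 and 3.21).

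The exchanger Slc26a3 was at 36.0 and 52.5 CPM in Krt20 cells and 6.63 and 5.11 in Krt20-0 cells, a change of 3.25 ± 0.40 (adjusted p = 0.00158) that was 2.65 without assembloid replicate 2. Guca2a, which encodes guanylin, stood at 188 and 261 CPM against 47.9 and 74.7, a change of 2.25 ± 0.14 that became 3.15 when the Krt20-0 cells met the same goblet and collagen limits as the members. Guca2b, encoding uroguanylin, was at 24.7 and 35.4 CPM against 12.3 and 14.2 (1.52 ± 0.13). These 3 genes were separated between the classes in both libraries.

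At the weak end of the list, Car4, the membrane-bound carbonic anhydrase, reached only 7.70 and 3.67 CPM against 1.04 and 0.253 (3.47 ± 0.73, adjusted p = 0.0103). The sulfotransferase gene Sult1a1 was at 1.04 and 2.00 CPM against 0.655 and 1.63 (0.82 ± 0.26, adjusted p = 0.0434). The Car4 change was 4.25 without assembloid replicate 1, 2.73 with thinned cells and 4.63 with Krt20-0 cells matched on UMIs. Levels of both genes were a few CPM in both classes, and the call of Sult1a1 was lost when scaled by library size, without assembloid replicate 1 (0.71) and without replicate 2 (0.87).

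**Figure D1:**
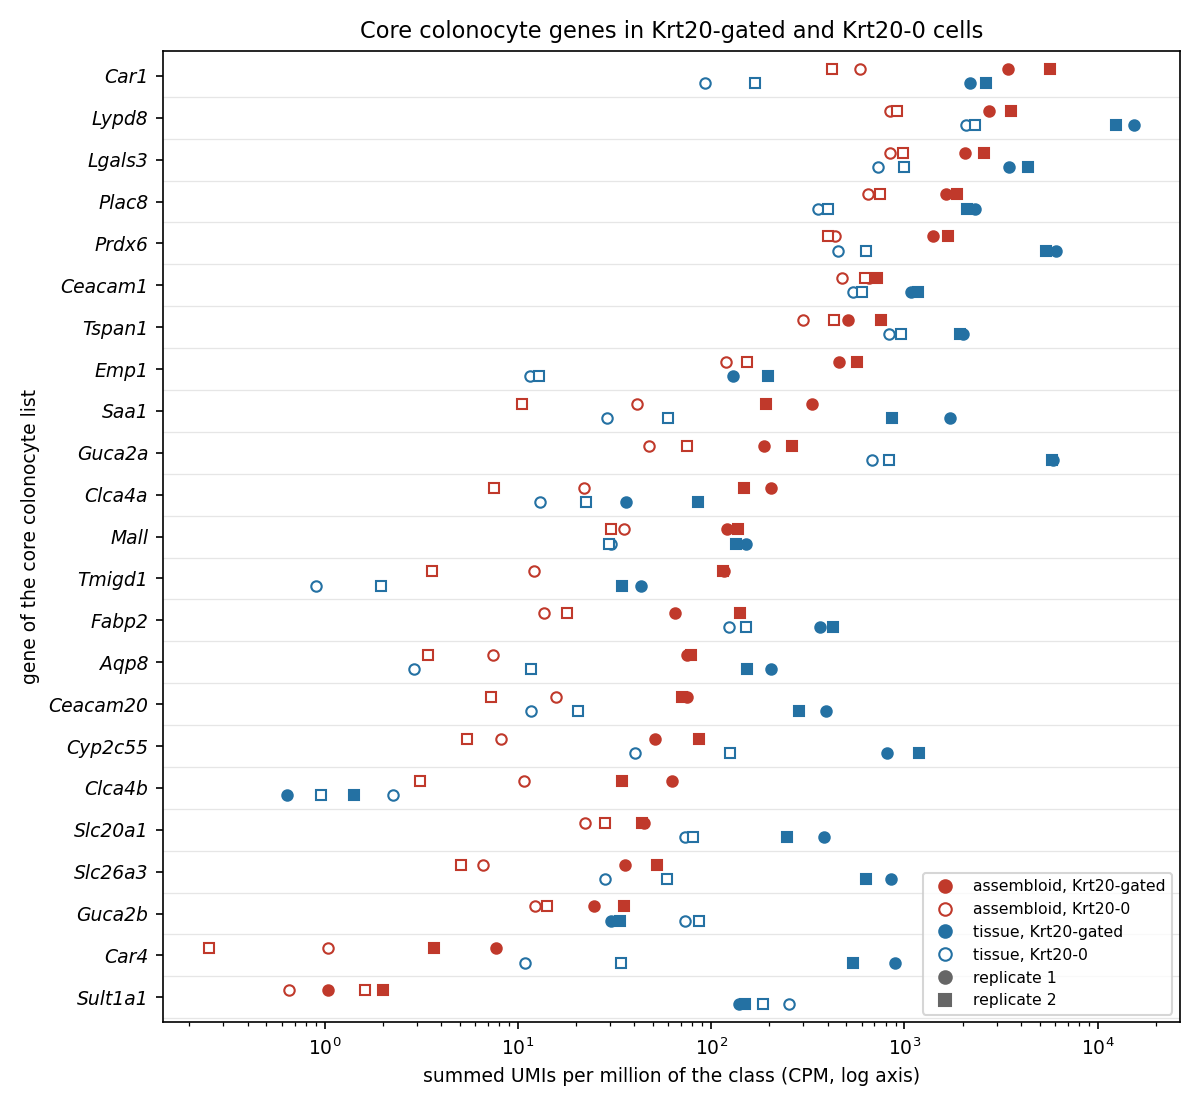
CPM of genes of the core colonocyte list (log axis) in summed cells of each library, red for assembloids and blue for tissue, filled for Krt20 cells and open for Krt20-0 cells, circles for replicate 1 and squares for replicate 2. Within each replicate the filled red point lies right of the open red one for every gene shown, and Slc26a3, Car4 and Guca2a of assembloid Krt20 cells lie far left of the filled blue points while those of Car1 lie right of them.

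Among 29 genes of ion and water transport, 19 were higher in Krt20 cells and 4 lower (15 and 8 when scaled by library size), with a median change of 0.82. Slc9a3, the apical sodium and proton exchanger, was at 7.81 and 8.35 CPM against 0.886 and 0.407 (3.95 ± 0.40, or 4.76 without replicate 1 and 3.35 without replicate 2), and its relative Slc9a2 rose by 2.54 ± 0.13. Atp12a, the colonic proton and potassium pump, was at 39.1 and 57.4 CPM against 11.4 and 13.1 (2.32 ± 0.29). Slc5a8, a sodium-coupled carrier of short-chain fatty acids, rose by 2.12 ± 0.23 from a level of 1.00 and 1.52 CPM. The 4 lower genes included the chloride channel gene Cftr, at 9.67 and 9.003 CPM against 15.7 and 24.2 (-0.70 ± 0.16, adjusted p = 0.0131), and Slc12a2, a carrier that loads cells with chloride, at 62.7 and 56.4 against 129.7 and 166 (-0.94 ± 0.12, adjusted p = 0.00170). The other lower genes were Kcne3, a potassium channel subunit, and Scnn1g of the epithelial sodium channel, at 0 and 0.0726 CPM, below the 0.107 and 0.109 CPM that 3 UMIs give.

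Structural genes of the brush border moved the same way. Of 19 genes on that list, 15 were higher and 1 lower, with a median of 1.19. Cdhr2 and Cdhr5, the protocadherins that link the tips of microvilli, rose by 2.03 ± 0.12 and 2.01 ± 0.14. Villin, from Vil1, bundles actin in microvilli and was at 199 and 199 CPM against 92.8 and 96.3 (1.43 ± 0.10). The actin bundler Espn rose by 1.80 ± 0.11 and the motor Myo1a by 1.60 ± 0.16, while Baiap2l2 was lower (-0.57 ± 0.13, adjusted p = 0.0144).

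All 5 simple keratins other than Krt20 were higher, with a median of 0.87. Krt8 rose by 1.38 ± 0.15, Krt19 by 1.14 ± 0.14, Krt18 by 0.87 ± 0.12 and Krt7 by 0.83 ± 0.10. Tight junction genes were higher in 13 of 16 and lower in 1 (8 and 1 when scaled by library size). Cldn23 rose by 1.88 ± 0.12 and Cldn7 by 1.00 ± 0.13, and the 1 that fell was Cldn2, a pore-forming claudin of crypt cells (-1.40 ± 0.23, or -2.03 without replicate 1).

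Differentiation transcription factors were higher in 17 of 24 and lower in none, with a median of 0.67. The split depended on scaling, with 10 higher and 5 lower by library size. Klf4, a factor of post-mitotic gut epithelium, was at 200.3 and 205 CPM against 92.2 and 103 (1.42 ± 0.10). Hnf4a, a nuclear receptor of enterocyte genes, rose by 1.05 ± 0.08, and the intestinal homeobox gene Cdx2 by 0.89 ± 0.09. Creb3l3 showed the steepest change of the list, 3.80 ± 0.36, at 7.95 and 4.94 CPM against 0.915 and 0.337.

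Most cell cycle genes went the other way. Of 26 cycling genes 24 were lower in Krt20 cells and 1 higher, with a median of -0.98, though only 11 were lower without the library block. Mki67 was at 50.8 and 35.5 CPM against 111 and 97.3 (-0.93 ± 0.14, adjusted p = 0.00302), and Top2a, the topoisomerase of dividing cells, at 129.8 and 62.5 CPM against 301 and 186 (-1.03 ± 0.17, adjusted p = 0.00397). Neither gene was absent from the Krt20 cells. Pcna, the sliding clamp of DNA replication and repair, was the higher gene, at 123 and 115 CPM against 83.1 and 82.2 (0.89 ± 0.08, adjusted p = 0.000631). Among 10 genes of cell cycle arrest, 7 were higher and none lower (3 and 2 when scaled by library size). The cyclin-dependent kinase inhibitors Cdkn1a and Cdkn2b rose by 1.30 ± 0.12 and 1.49 ± 0.13, and Cdkn1a stood at 506 and 475 CPM against 266 and 246.

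Of 21 Wnt target and stem genes 9 were lower in Krt20 cells and 1 higher. Lgr5, the receptor that marks crypt base stem cells, was at 2.94 and 1.74 CPM against 7.69 and 10.7 (-1.60 ± 0.31, adjusted p = 0.00777), and its change was -2.20 without replicate 1. Smoc2 fell by 1.71 ± 0.28 and Cd44 by 1.13 ± 0.14 on the log2 scale, and Mecom was the gene that was higher (0.49 ± 0.10, adjusted p = 0.0105), a call that was lost when scaled by library size and, at 0.33, without assembloid replicate 1. The Notch list had 1 gene higher and 4 lower of 11 (0 and 7 when scaled by library size), among the lower Rbpj, the DNA-binding partner of Notch (-0.72 ± 0.11). The BMP list had 3 higher and 3 lower of 18 (2 and 8 when scaled by library size, 5 and 0 with Krt20-0 cells under the members' goblet and collagen limits). The first pair was no larger a share than the 20.3% and 20.8% of all 17301 genes, of which 1499 were higher and 6509 lower when scaled by library size. Its higher genes included the ligand gene Bmp2, at 67.9 and 64.5 CPM against 27.4 and 32.4 (1.51 ± 0.10), and Id1, a target of BMP signalling (0.88 ± 0.12). The lower ones were Bmp4, Bmp7 and Bmpr1b, each under 1 CPM in the Krt20 cells of both libraries, and none of the 3 was called when the Krt20-0 cells met the same limits.

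Genes of glycolysis and hypoxia rose together with Krt20: 19 of 24 were higher and none lower, with a median of 0.68 (15 and 2 when scaled by library size). The glucose carrier gene Slc2a1 was at 336 and 370.2 CPM against 227 and 249 (0.93 ± 0.09). Ndrg1 was at 703 and 791 CPM against 413 and 459 (1.14 ± 0.10), Ldha, encoding lactate dehydrogenase A, rose by 1.07 ± 0.13 and Gapdh by 0.98 ± 0.15. Fatty acid oxidation genes were higher in 13 of 20 and lower in 3 (9 and 4), with Slc25a20, the mitochondrial carrier of acylcarnitine, at 1.17 ± 0.12 and the thiolase gene Acat1 at -0.62 ± 0.11.

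Cholesterol and fatty acid synthesis genes were higher in 13 of 18 and lower in 1 (7 and 5 when scaled by library size). Insig1, a feedback regulator of sterol synthesis, was at 189 and 237 CPM against 84.1 and 82.7 (1.70 ± 0.13), and Hmgcs1, the cytosolic synthase of the same path, at 189.9 and 217 against 128 and 149 (0.91 ± 0.10). Of 21 defence genes 7 were higher and 7 lower, or 6 and 4 with Krt20-0 cells under the members' limits. Dmbt1, a scavenger receptor secreted by mucosal epithelium, rose by 1.29 ± 0.13 and the cytokine gene Il18 by 1.27 ± 0.11. Of 16 genes linked to fetal-like and regenerating epithelium 8 were higher, among them Ly6d (145 and 101 CPM against 37.4 and 32.0, 2.17 ± 0.09) and the EGF receptor ligand Areg (1.21 ± 0.13), and 4 were lower, among them Spp1 (-2.75 ± 0.40, or -1.76 under the same limits for both classes, -3.78 without replicate 1 and -1.999 without replicate 2) and Il33 (-1.46 ± 0.11). Of 17 genes of p53 response and cell death 8 were higher and 2 lower (5 and 6), with Gsdmd, which forms pores in pyroptosis, at 1.18 ± 0.10 and Casp8 at 0.86 ± 0.08.

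Outside the lists, the 10 genes with the highest change among those past the threshold, at a mean of at least 50 CPM and higher in both libraries, were 1810065E05Rik, Ly6m, Sult1b1, Sult1d1, Gsta1, Pmp22, Cyp2d34, Hsd17b2, Sdcbp2 and Ly6g. Their log2 changes ran from 3.24 down to 2.18. 1810065E05Rik was at 267 and 747 CPM against 54.0 and 68.3, a change that was 3.86 without replicate 1 and 2.52 without replicate 2, and the surface protein gene Ly6m at 139 and 92.9 against 24.1 and 9.92. Sult1b1 and Sult1d1 are sulfotransferases, Gsta1 a glutathione transferase and Cyp2d34 a cytochrome P450, all families that conjugate or oxidise foreign compounds. Sult1b1 stood at 135 and 165 CPM against 29.7 and 27.2 and Gsta1 at 184 and 184 against 48.6 and 30.0.

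The 10 lowest were Igfbp7, Ifitm1, Igfbp4, Lgals1, Ifitm3, Saa3, Ifi27l2a, Atp2c2, Apoe and Kntc1, with changes from -3.54 to -1.40. Igfbp7 and Lgals1 are also genes of stromal cells. Igfbp7 was at 11.6 and 4.21 CPM in Krt20 cells against 78.5 and 166 in Krt20-0 cells, and Lgals1 at 36.0 and 11.7 against 176 and 240.4. Most of these values depended on the library. Without replicate 1 the change was -4.88 for Igfbp7, -4.59 for Ifitm1, -4.11 for Igfbp4, -3.95 for Lgals1, -3.29 for Ifitm3, -3.29 for Ifi27l2a, -2.52 for Atp2c2, -2.36 for Apoe and -2.07 for Kntc1. Without replicate 2 it was -2.55, -2.28, -2.32 and -2.07 for the first 4 of these, -1.41 for Ifi27l2a and -0.97 for Apoe. The calls of Atp2c2, Apoe and Kntc1 were lost without the library block, and that of Apoe with DESeq2. The fibroblast list was higher in the Krt20-0 cells as given above. When these had to meet the members' goblet and collagen limits, the change was -1.10 for Igfbp7, -1.03 for Ifitm1, -0.96 for Igfbp4, -1.50 for Lgals1, -1.42 for Ifitm3, -0.85 for Saa3 and -0.63 for Ifi27l2a, each still past the threshold.

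Depth was then made equal by thinning every cell to 2000 UMIs and counting the share of cells with at least 1 UMI of a gene. The thinned shares were read beside goblet-gated cells (Krt20 0 and at least 1% of UMIs from Muc2 and Spink4). These were 313 and 237 cells with median depths of 5290 and 19210 UMIs before thinning. They were expected to hold little of the colonocyte genes but, as the shares below show, were not free of them. A UMI of Car1 was held by 87.7% and 87.8% of Krt20 cells in replicates 1 and 2, 60.2% and 38.5% of Krt20-0 cells and 41.2% and 16.9% of goblet-gated cells. Without thinning the first pair was 97.6% and 98.8%. For Tmigd1 the shares were 16.9% and 16.8% in Krt20 cells, 3.49% and 0.736% in Krt20-0 cells and 2.24% and 0% in goblet-gated cells. The last, 0 of 237 cells, lies below the floor of 1.27% that 3 cells give. Krt20 cells were above both other classes in each library for the 2 genes.

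Fewer Krt20 cells held the transporters. An Aqp8 UMI was held by 10.6% and 8.94% of Krt20 cells (22.7% and 21.6% without thinning), 2.22% and 0.959% of Krt20-0 cells and 1.60% and 0.422% of goblet-gated cells. A Slc26a3 UMI was held by 6.74% and 8.50% of Krt20 cells (19.03% and 29.6% without thinning), 1.66% and 1.23% of Krt20-0 cells and 1.60% and 0.422% of goblet-gated cells. In Krt20 cells of tissue the share for Slc26a3 was 61.6% and 57.3% at the same thinned depth, against 5.35% and 13.6% in Krt20-0 cells and 2.20% and 8.48% in goblet-gated cells of tissue. The Krt20 cells of each library lay above both other classes of that library. Emp1, an epithelial membrane protein, was in between, with 51.4% and 59.3% of Krt20 cells, 23.1% and 22.6% of Krt20-0 cells and 16.3% and 8.02% of goblet-gated cells.

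Guca2a was not particular to the Krt20 cells. Its share was 22.7% and 26.6% in Krt20 cells, 8.89% and 8.34% in Krt20-0 cells and 30.4% and 52.3% in goblet-gated cells, the last being the highest of the 3 classes. A Mki67 UMI was held by 8.27% and 4.55% of Krt20 cells (26.2% and 21.4% without thinning), by 16.7% and 14.2% of Krt20-0 cells and by 7.35% and 5.06% of goblet-gated cells. The Krt20 cells were thus near the goblet-gated level for this gene and below the Krt20-0 cells in both libraries. The Top2a share was 17.7% and 7.48% in Krt20 cells and 34.7% and 21.9% in Krt20-0 cells.

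**Figure D2:**
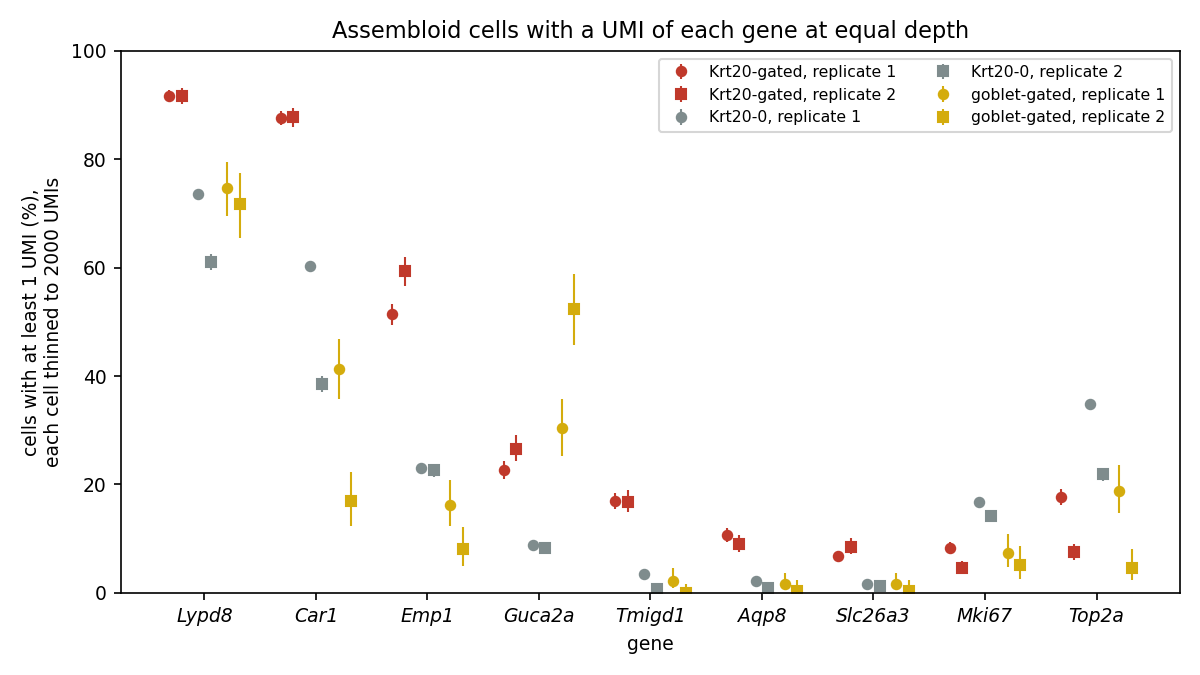
Share of cells (percent) with at least 1 UMI of each of 9 genes after each cell was thinned to 2000 UMIs, for Krt20, Krt20-0 and goblet-gated cells of both assembloid libraries, with exact 95% binomial intervals that cover counting error only. Krt20 cells are above the other classes for Car1, Lypd8, Emp1, Tmigd1, Aqp8 and Slc26a3, goblet-gated cells are highest for Guca2a, and Krt20 cells are below Krt20-0 cells for Mki67 and Top2a.

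Within the members, cells were ordered by the share of their UMIs from Krt20 and split into 3 equal groups per library (846 cells each in replicate 1, and 455, 455 and 454 in replicate 2). Since Krt20 set the order, the values are a description. Car1 stood at 1845, 3691 and 6739 CPM from the lowest to the highest group of replicate 1 and at 3105, 6288 and 9443 CPM in replicate 2. Aqp8 went through 19.2, 65.8 and 215 CPM and 27.0, 60.7 and 195 CPM. Both rose at each step in both libraries, Aqp8 by more. Slc26a3 rose from 16.0 to 75.1 CPM and from 36.8 to 83.6 CPM, Tmigd1 from 43.1 to 289 CPM and from 41.1 to 251 CPM, and Guca2a from 97.5 to 378 CPM and from 122 to 473 CPM. Cells of tissue inside the same gate, split the same way, showed such a rise too. Car1 went there from 1256 to 3518 and from 1660 to 3995 CPM, and Aqp8 from 63.5 to 451 and from 19.1 to 429 CPM.

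The cycling list, summed over 26 genes, fell through 1782, 1317 and 966 CPM in replicate 1 and 1345, 824 and 597 CPM in replicate 2. Mki67 fell from 62.6 to 25.0 CPM and from 54.3 to 12.1 CPM. Pcna went against its list and was at 106, 132 and 151 CPM and 100.5, 117 and 139.8 CPM. Depth moved with the groups, at median UMIs of 14571.5, 8089 and 6090 in replicate 1 and 22818, 17457 and 13934.5 in replicate 2, and its part in these values was not tested. In tissue the cycling list fell as well, from 440 to 321 and from 670 to 377 CPM. Pcna went there from 34.1 to 37.7 and from 46.9 to 43.4 CPM, with no rise in replicate 2.

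**Figure D3:**
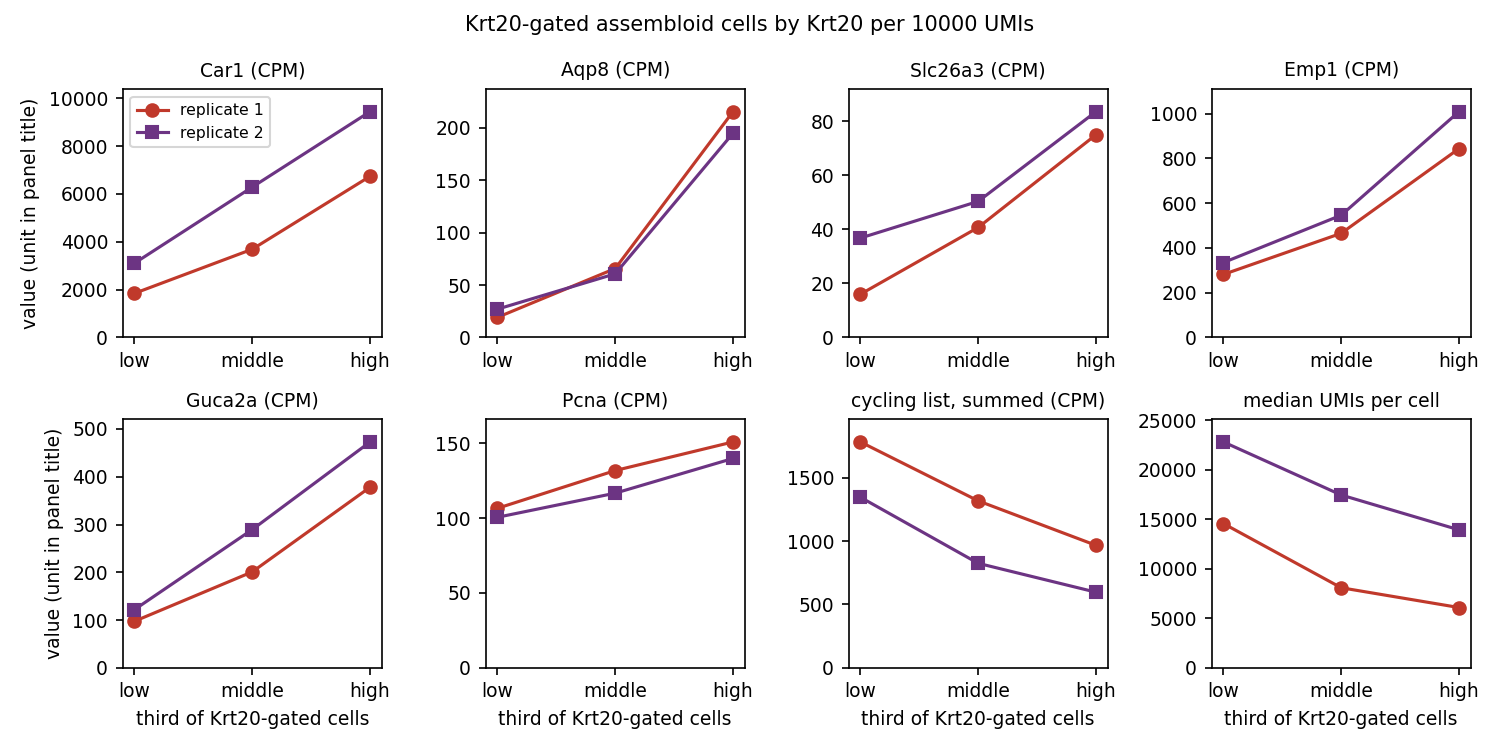
Levels in CPM of 6 genes and of the summed cycling list, and median UMIs per cell, in the lowest, middle and highest group of Krt20 cells by the Krt20 share of their UMIs, a line for each assembloid library. Car1, Aqp8, Slc26a3, Emp1, Guca2a and Pcna rise from low to high in both libraries, and the cycling list and the depth fall.

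To place these cells beside colonocytes that formed in the animal, the same gate was applied to the tissue libraries, where it held 861 cells (411 and 450, summing to 7824740 and 7744160 UMIs). The gate did not take like levels of Krt20. Exactly 2 UMIs were held by 15.1% and 13.3% of the tissue members, against 40.0% and 20.7% of the assembloid members. The part of this in the differences below was not tested. Of 14229 genes tested, 7294 (51.3%) differed between Krt20 cells of assembloids and of tissue, 3927 higher in assembloids (27.6%) and 3367 lower (23.7%), with a median change of 0.05. Library size scaling moved the median to -0.41 and the share of higher genes among the called from 53.8% to 31.5%. A majority of all genes thus passed, against which each list below is to be read. With 1 tissue library, and the spread taken from the assembloid pair, 3059 genes were called without tissue replicate 1 and 3539 without tissue replicate 2.

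The core colonocyte list split. Of its 24 genes 14 were lower in assembloid cells and 5 higher, with a median of -1.32 (16 and 5 when scaled by library size). Slc26a3 was at 36.0 and 52.5 CPM in assembloids and 848 and 635 CPM in tissue (-3.62 ± 0.24, adjusted p = 0.000213). Guca2a was at 188 and 261 against 5873 and 5783 CPM (-4.25 ± 0.21, adjusted p = 0.000107). The assembloid values of both were below the tissue values without overlap.

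Car4 and Sult1a1 were the lowest of the list: Car4 stood at 7.70 and 3.67 CPM against 896 and 542 (-6.51 ± 0.50, adjusted p = 0.000298, or -7.20 without assembloid replicate 1) and Sult1a1 at 1.04 and 2.00 against 139 and 150.05 (-6.12 ± 0.26). Lypd8 was at 2738 and 3574 against 15315.5 and 12460 CPM (-1.69 ± 0.21). Aqp8 was lower by a small margin, -0.76 ± 0.18 (adjusted p = 0.0138), and its call was lost without tissue replicate 1 (-0.56).

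A few genes of the list were higher in the assembloid cells. Tmigd1 was at 116 and 115 CPM against 43.2 and 34.6 (2.03 ± 0.17, adjusted p = 0.000374) and Emp1 at 457 and 566 against 130.2 and 196 (2.11 ± 0.23). Clca4b was at 63.1 and 34.7 against 0.639 and 1.42 CPM (6.04 ± 0.51), the latter a few UMIs, and Clca4a at 204 and 148 against 36.3 and 85.2 (2.01 ± 0.40). Without tissue replicate 2 their values were 6.68 and 2.71. With at most 5% mitochondrial UMIs, which left 139 and 91 tissue Krt20 cells, Clca4b was at 6.99. Car1 was higher by 1.37 ± 0.25 (adjusted p = 0.00556), which failed the threshold without tissue replicate 1 (1.22) and without tissue replicate 2 (1.48). The 2 carbonic anhydrases therefore differed from tissue in opposite directions.

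Of 28 ion and water transport genes tested 22 were lower in assembloids and 4 higher, with a median of -1.73. In Krt20-0 cells the list was below tissue too, at 2225 and 2371.5 CPM in sum against 6231 and 6568. The short-chain fatty acid carrier Slc5a8 was at 2.87 and 5.84 CPM against 216 and 284 (-5.40 ± 0.33). Hsd11b2, the enzyme that shields the mineralocorticoid receptor from glucocorticoids, was at 5.95 and 11.7 against 431 and 408 (-5.13 ± 0.31). Brush border genes were lower in 8 of 19 and higher in 3, among the lower the mucin gene Muc3 (-2.11 ± 0.18). Fatty acid oxidation genes were lower in 10 of 20 and higher in 1, with Ppara, a nuclear receptor for fatty acids, at 0.430 and 0.871 against 24.2 and 24.02 CPM and its target Cpt1a at 20.6 and 27.0 against 122 and 123 (-1.91 ± 0.15).

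Tight junction genes moved in both directions, 7 higher and 5 lower of 16 (3 and 7 when scaled by library size). The 2 genes furthest from tissue were claudins, while Cldn3, Cldn15 and Cldn23 did not pass the test: Cldn4 was at 300.4 and 389 CPM in assembloids against 9.46 and 9.17 in tissue (5.66 ± 0.19), and Cldn8, a sealing claudin of the distal colon, at 0.609 and 1.52 against 109.7 and 127 (-6.34 ± 0.33, or -7.09 without assembloid replicate 2). The Cldn4 value was 4.21 when cells were held to 5% mitochondrial UMIs and 7.57 without enteroendocrine-like cells. Krt7, a keratin that is low in normal colon, was at 434 and 449 against 37.7 and 55.4 CPM (3.71 ± 0.22, or 2.79 at 5% mitochondrial UMIs).

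Differentiation factors were lower in 10 of 23 and higher in 5. Their sum was also below tissue in Krt20-0 cells, at 1335 and 1626.5 CPM against 3281 and 3441. The vitamin D receptor gene Vdr was at 10.9 and 19.5 CPM against 244 and 217 (-3.48 ± 0.26) and Klf4 at 200.3 and 205 against 800.03 and 864 (-1.58 ± 0.15), while Creb3l3 was at 7.95 and 4.94 against 0.256 and 0.775 CPM, the tissue values being a few UMIs. BMP genes were lower in 7 of 15 and higher in 2 (10 and 0 when scaled by library size), and in Krt20-0 cells their sum was 517 and 665 against 1042 and 1059 CPM. Their response gene Id1 was at 90.6 and 114 against 457 and 609 CPM (-1.93 ± 0.19). Defence genes were higher in 8 of 17 and lower in 7. Pigr, the carrier of immunoglobulin A across epithelium, was at 101 and 196 against 2301 and 1969 CPM (-3.41 ± 0.31). Il18 was at 22.9 and 33.1 against 404 and 458 CPM (-3.49 ± 0.20). The protease inhibitor Slpi was at 35.9 and 85.1 against 0.256 and 0.517 CPM. In assembloids, goblet-gated cells held more Slpi, 777 and 1867 CPM, and Krt20-0 cells under the members' limits 42.1 and 94.0 CPM.

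Hypoxia and glycolysis genes stood above tissue in 23 of 24 with none below, at a median of 2.76. Bnip3, a mitophagy receptor induced by low oxygen, was at 393 and 305 CPM against 8.05 and 5.68 (6.13 ± 0.29, adjusted p = 9.03e-05). At 2000 UMIs a cell, 49.1% and 42.7% of the assembloid and 1.22% and 1.78% of the tissue Krt20 cells held it. Ndrg1 was at 703 and 791 against 24.3 and 24.8 CPM (5.38 ± 0.17), Adm, encoding adrenomedullin, at 155 and 171 against 4.60 and 4.65 (5.60 ± 0.17), and Gapdh at 4833 and 5873 against 1123 and 1307 (2.59 ± 0.19). At 5% mitochondrial UMIs Ndrg1 was at 4.67 and Adm at 6.36. The Krt20-0 cells of assembloids held Bnip3 too, at 289.6 and 262 CPM. Their sum of the whole list was 12114.5 and 13437 CPM, against 2852 and 3112 in Krt20-0 cells of tissue, so the gap was not particular to the Krt20 cells.

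The fetal-like list had 14 of 16 genes higher and none lower, with a median of 3.39, or 2.80 with Ly6d and Spp1, both without a UMI in the tissue cells, set at their lower bound. The list was above tissue in the Krt20-0 cells as well, at 2473 and 3027 CPM in sum against 584 and 704. Ly6d had 4061 and 2778 UMIs in assembloid Krt20 cells and 0 and 0 in tissue, at least 260-fold higher given a floor of 3 UMIs per library. Sprr1a, a cornified envelope gene, was at 319 and 332 CPM against 3.71 and 10.5 (5.98 ± 0.42). Its change was 5.40 without tissue replicate 1 and 6.88 without tissue replicate 2. Goblet-gated cells of assembloids held more Sprr1a, 815 and 1172 CPM. Ly6c1 was at 211 and 199 against 11.2 and 12.9 CPM (4.55 ± 0.18). Cycling genes were higher in 16 of 26 and lower in none, with a median of 1.94. In Krt20-0 cells the cycling list was above tissue too, at 2940 and 2188 CPM in sum against 1496 and 1323. Mki67 was at 50.8 and 35.5 against 10.9 and 14.3 CPM (2.25 ± 0.27) and Top2a at 129.8 and 62.5 against 11.5 and 17.7 (3.20 ± 0.43, or 2.52 without assembloid replicate 1).

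Other cells' transcripts moved with these differences as well. The fibroblast list summed to 92.8 and 35.0 CPM in assembloid Krt20 cells and to 14.2 and 6.33 in tissue, where 8 of its 11 genes were at 0, and the macrophage list to 88.6 and 108 against 1.28 and 2.84 CPM. In the macrophage list the gene with the firmest bound was Lyz2, at least 99.9-fold higher in assembloids. The goblet list went the other way, at 566 and 507 against 2353 and 2579 CPM, and so did the enteroendocrine list, at 104 and 537 against 1948 and 1740.02 CPM. Of 14 enteroendocrine genes tested 10 were lower in assembloids, and 4 lower and 2 higher once the enteroendocrine-like cells were left out of both. Those cells were chosen by genes of this same list. The part of such transcripts in the other differences was not tested.

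Outside the lists, the 5 genes furthest above tissue were F630040K05Rik, Slc25a48, Gm41609, Gm29585 and Gm1673. F630040K05Rik was at 222 and 136 CPM against 0.256 and 0.258, and Slc25a48, of the mitochondrial carrier family, at 220.4 and 172 against 0 and 0.646. Gm41609 was at 906 and 499 against 2.04 and 0.775 CPM. All of these but Gm1673 were higher still in the Krt20-0 cells of both assembloid libraries, Gm41609 at 1483 and 1106 CPM. The 5 furthest below were Mptx1, Gm30613, Sycn, Tppp3 and Pck1. Mptx1, a mucosal pentraxin, was at 0 and 0.0726 CPM in assembloids and 525 and 852 in tissue. Krt20-0 cells of tissue held far more of it, at 11313 and 16828.5 CPM. Sycn, syncollin, was at 3.15 and 6.35 against 4161 and 4155 CPM. Pck1, an enzyme of gluconeogenesis, was at 0.430 and 0.472 against 123 and 122 CPM. The same direction in every library was part of the rule that chose these 10.

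**Figure D4:**
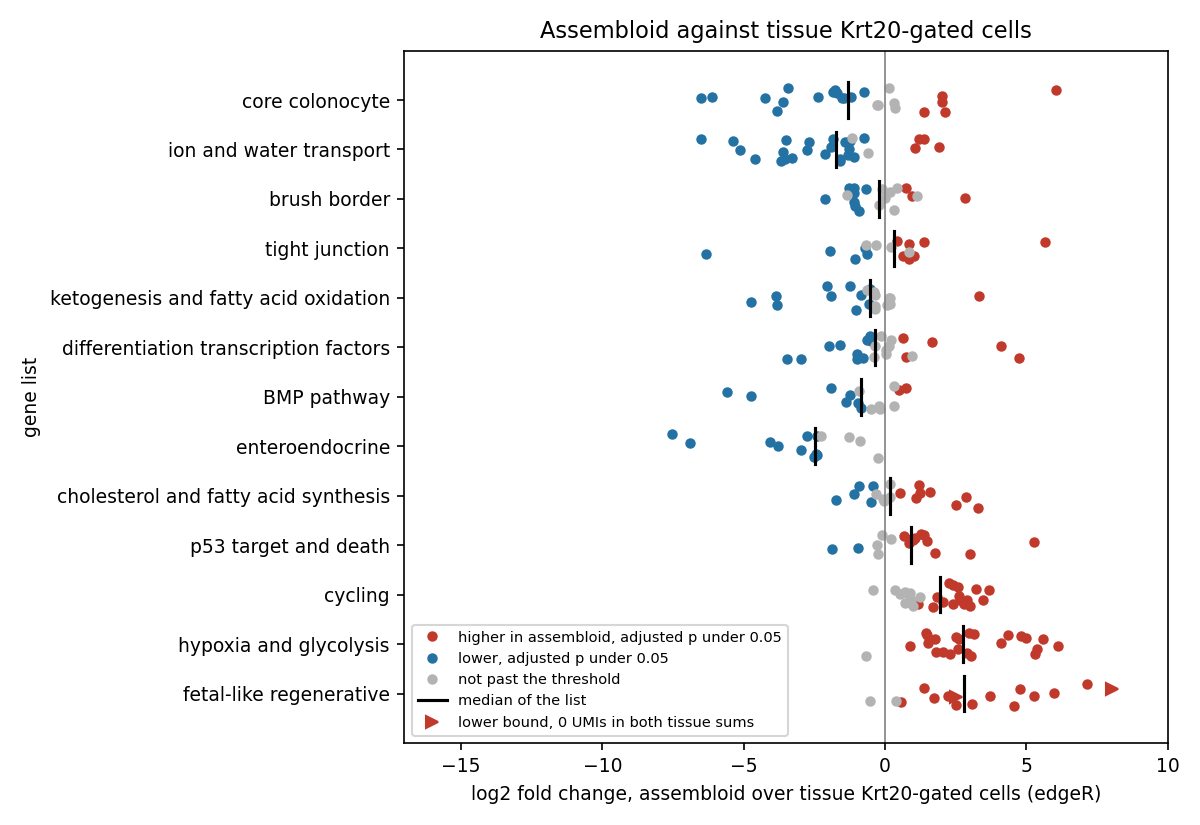
Log2 change of each list gene in Krt20 cells of assembloids against Krt20 cells of tissue, by list, red for genes past the threshold and higher, blue for past it and lower, grey for the rest, with a black line at each list's median and triangles for lower bounds of genes without a UMI in tissue. Hypoxia, fetal-like and cycling genes lie mostly above 0, and ion and water transport and core colonocyte genes mostly below.

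The last comparison asked whether Krt20 went with the same genes in assembloids as in tissue, as the difference of the 2 contrasts (assembloid minus tissue) in 1 model. It shares its sums with the comparisons above. In tissue, Krt20 and Krt20-0 cells differed in 43.0% of the 17301 genes, 19.7% higher and 23.4% lower with Krt20. Of 17301 genes 2808 (16.2%) differed, 1764 upward in assembloids (10.2%) and 1044 downward (6.03%), with a median of 0.12. The higher share among the called was 62.8%, and 44.3% when scaled by library size. Without the library block 909 genes passed. With 1 tissue library, and the spread taken from the assembloid libraries, 574 passed without tissue replicate 1 and 1343 without tissue replicate 2.

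For the core colonocyte list the contrast differed in 10 of 24 genes, 5 in each direction, with a median of -0.67. The goblet list summed to 12129 and 15692 CPM in the Krt20-0 cells of tissue and to 1724 and 3670.1 CPM in those of assembloids, so values were also taken with Krt20-0 cells under the members' goblet and collagen limits, which left 1028 and 648 such cells in tissue. The list then had 6 genes upward and 1 downward. Guca2b was 24.7 and 35.4 CPM in Krt20 cells against 12.3 and 14.2 in Krt20-0 cells of assembloids, but 30.4 and 33.7 against 73.1 and 86.4 in tissue. The difference was 2.63 ± 0.19 (adjusted p = 0.00135). The fall in tissue did not hold under those limits: Krt20-0 cells of tissue then held 21.9 and 25.5 CPM, Guca2b was higher with Krt20 in tissue as well (0.64 ± 0.18, adjusted p = 0.0217), and the difference was 1.03 ± 0.23 (adjusted p = 0.0320). Emp1 was higher with Krt20 in both, by 2.27 in assembloids and 3.91 in tissue, where Krt20-0 cells held 11.5 and 12.9 CPM, and the difference was -1.64 ± 0.17 (adjusted p = 0.00299). Clca4a rose more steeply in assembloids, with a difference of 2.15 ± 0.41 that failed the threshold without tissue replicate 1 (1.97), without replicate 2 (2.42), without the library block (1.87) and at 5% mitochondrial UMIs (1.23). It was 1.44 without assembloid replicate 2.

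Ndrg1, Krt7 and Pcna had opposite signs in assembloids and tissue, Ndrg1 only when all Krt20-0 cells were taken. Ndrg1 of tissue Krt20 cells was at 24.3 and 24.8 CPM against 86.1 and 99.1, a difference of 2.84 ± 0.16 (adjusted p = 0.00112). Under the limits Krt20-0 cells of tissue held 20.5 and 25.0 CPM, the change in tissue was 0.32 ± 0.14 (adjusted p = 0.102) and the difference 0.81 ± 0.17 (adjusted p = 0.0264). Krt7 was at 37.7 and 55.4 CPM in tissue Krt20 cells against 131 and 158 in Krt20-0 cells, and the difference was 2.28 ± 0.15 (adjusted p = 0.00124), or 1.34 ± 0.18 under the limits, with -0.54 ± 0.13 in tissue. Pcna was at 35.7 and 44.3 CPM against 66.2 and 77.8 in tissue (1.54 ± 0.12, adjusted p = 0.00150, and 1.497 under the limits). Against all Krt20-0 cells the 2 libraries of tissue had less in the Krt20 cells and the 2 of assembloids more, for each of the 3 genes.

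Cycling genes differed upward in 12 of 26 and downward in none, with a median of 0.85, and in 6 by library size. Mki67 changed with Krt20 by -0.93 in assembloids and by -2.82 in tissue (difference 1.89 ± 0.23), so that the fall was shallower in assembloids. The call was lost at 5% mitochondrial UMIs (1.27), where 139 and 91 tissue Krt20 cells were left. Cenpf, a kinetochore protein gene, also fell less in assembloids, at -1.08 and -3.50 (difference 2.42 ± 0.27). Wnt target and stem genes differed upward in 10 of 21 and downward in 1 (6 and 1 by library size), with Myc at 2.25 ± 0.29 and Ephb2, a receptor that sorts crypt cells, at 1.94 ± 0.19.

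Cholesterol and fatty acid synthesis genes differed upward in 11 of 18 and downward in 1 (7 and 1 by library size). Insig1 was higher by 1.70 with Krt20 in assembloids and changed by -0.50 in tissue, at 46.5 and 34.0 CPM in Krt20 and 76.7 and 54.2 in Krt20-0 cells (difference 2.20 ± 0.20). Enteroendocrine genes differed downward in 8 of 15, and in none once enteroendocrine-like cells were left out, an alternative chosen after seeing the data. Chgb, which encodes chromogranin B of such cells, then went from -4.30 to 0.040. The cells left out were chosen by Chgb and other genes of this list, so these shifts follow from the choice and are not a test. Hypoxia and glycolysis genes differed upward in 7 of 24 and downward in 3, or in 5 and 0 under the goblet and collagen limits.

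**Figure D5:**
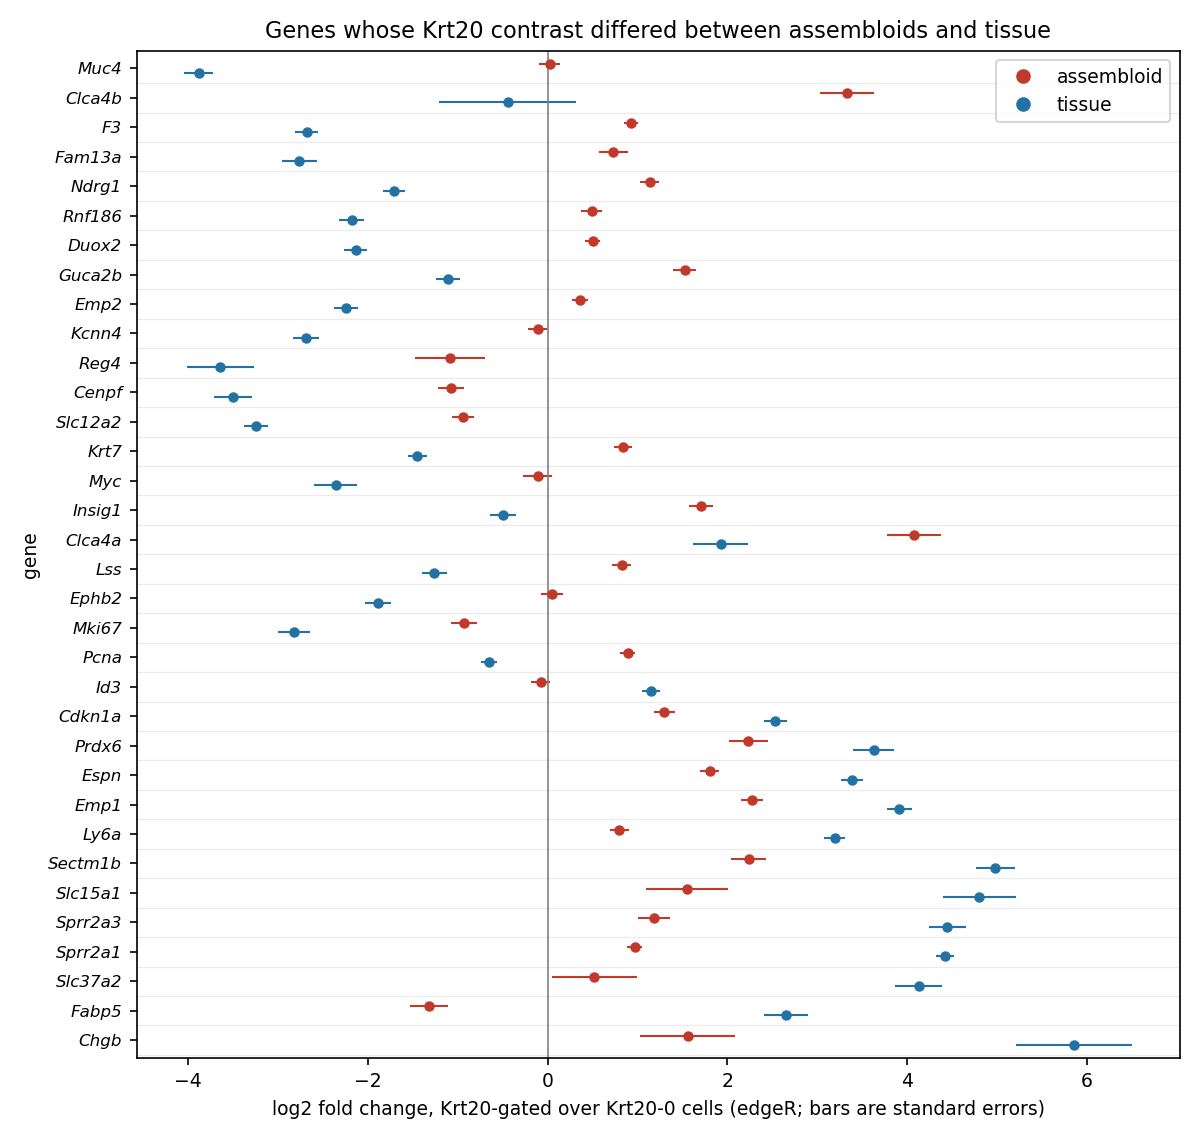
Log2 change ± standard error of Krt20 against Krt20-0 cells in assembloids (red) and in tissue (blue) for 34 genes whose change differed between them. Krt20-0 cells are all such cells, goblet cells included: Guca2b, Krt7, Ndrg1 and Pcna are above 0 in assembloids and below 0 in tissue, but with Krt20-0 cells under the members' limits the tissue values of Guca2b and Ndrg1 were 0.64 and 0.32. In the plot Mki67 and Cenpf are below 0 in both with the tissue value lower.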

How the data were processed

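Tables of UMI counts per gene and cell, unfiltered by cell type, were deposited by the authors. The submitters' processing notes name Cell Ranger 6 and build mm10. Headers of the epithelial matrices name Cell Ranger 7.1.0 and those of the stromal ones 6.0.1, versions that differ in whether intronic reads are counted by default, and whether intronic reads were counted is not given in the sources used here. Counts were read as raw whole numbers (32285 genes, 115502 barcodes, 99133978 to 191255856 UMIs per library). Some items of the lists are not reported here by name. Members and gene lists (27 lists, 442 genes) were chosen with earlier results of these data known.

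UMIs were summed per library and class and tested with edgeR 4.0.16 (R 4.3.3; filterByExpr, TMM, glmQLFit and glmQLFTest, Benjamini-Hochberg over all genes tested, adjusted p of 0.05). The Krt20 contrasts within assembloids and within tissue used 8 sums with the library as a block. The comparison with tissue used 4 sums without one. Genes named outside the lists had an adjusted p under 0.05, a mean of at least 50 CPM and the same direction in every library, the 10 highest and 10 lowest of the first contrast and 5 each of the others, leaving out gate, mitochondrial, ribosomal, immunoglobulin and haemoglobin genes. The fits were also run on simulated data in which far fewer genes were changed than were called here. That run does not measure the error of the calls in these data. Shares used Python 3.11.15, with exact Clopper-Pearson 95% intervals and floors of 3 counts, which cover counting error only. No doublet caller was run, and leaving out barcodes above the 95th percentile of UMIs was an alternative. Cells within the quality limits were 22300 and 6922 in the assembloid epithelial libraries and 2443 and 2771 in those of tissue. The part of barcodes that held more than 1 cell was not tested. Others were DESeq2 1.42.0, library size scaling, no low-count filter, thinned or matched cells, other limits, and each library left out.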

Additional observations from a re-analysis of the deposited data

Results flagged for a closer look

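For the results below, the change with Krt20 differed between assembloids and tissue by the test of the difference itself, in edgeR's quasi-likelihood model with an adjusted p under 0.05. In all 2808 genes passed. Values are log2 differences, assembloid minus tissue, ± standard error, and no explanation was weighed. Values "under the limits" are against Krt20-0 cells that met the members' goblet and collagen limits.

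Of the 10 core colonocyte genes that passed, 5 in each direction, 5 are given here. Upward were Guca2b at 2.63 ± 0.19 (adjusted p = 0.00135), or 1.03 under the limits, Clca4b at 3.77 ± 0.73 and Clca4a at 2.15 ± 0.41. Downward were Emp1 at -1.64 ± 0.17 and Prdx6, a peroxiredoxin, at -1.39 ± 0.30, or -0.92 and not past the threshold under the limits. In Clca4b, Krt20 cells of tissue held 0.639 and 1.42 CPM, so that its value rests on few UMIs, and its adjusted p was 0.0178.

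Structural and transport genes were Muc4, a membrane mucin, at 3.91 ± 0.20 (1.93 under the limits), Krt7 at 2.28 ± 0.15 (1.34), Espn at -1.58 ± 0.16, Slc12a2 at 2.30 ± 0.18 (1.43), the potassium channel Kcnn4 at 2.58 ± 0.18 and the peptide carrier Slc15a1 at -3.25 ± 0.60, or -2.27 without tissue replicate 1 and -4.17 without tissue replicate 2. Muc4 changed with Krt20 by -3.88 in tissue and 0.02 in assembloids, and by -1.87 and 0.06 under the limits.

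Of genes of growth and arrest, Mki67 was at 1.89 ± 0.23, Cenpf at 2.42 ± 0.27, Pcna at 1.54 ± 0.12, Myc at 2.25 ± 0.29, Ephb2 at 1.94 ± 0.19, Cdkn1a at -1.24 ± 0.17 and Id3 at -1.23 ± 0.15. Under the limits Id3 was at 0.013 (adjusted p = 0.990). Cdkn1a rose with Krt20 in both, by 1.30 in assembloids and 2.53 in tissue.

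Genes of stress, defence and sterol synthesis were Ndrg1 at 2.84 ± 0.16, or 0.81 under the limits, the oxidase gene Duox2 at 2.63 ± 0.16, Ly6a at -2.39 ± 0.15 (-1.77 under the limits), Insig1 at 2.20 ± 0.20 and Lss, lanosterol synthase, at 2.09 ± 0.18. Ly6a rose with Krt20 by 3.19 in tissue and by 0.80 in assembloids. Chgb, an enteroendocrine gene, was at -4.30 ± 0.79.

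Outside the lists, the 5 genes furthest upward were F3, tissue factor, at 3.61 ± 0.15, Fam13a at 3.49 ± 0.25 (2.81 under the limits), Rnf186 at 2.67 ± 0.18, Emp2 at 2.61 ± 0.16 and Reg4 at 2.56 ± 0.53. Reg4 was at 0.042 under the limits (adjusted p = 0.993) and at 1.84 without enteroendocrine-like cells. The 5 furthest downward were Fabp5, a fatty acid binding protein, at -3.97 ± 0.32 (-2.67 with at least 3 Krt20 UMIs), Slc37a2 at -3.61 ± 0.50 (-2.97 without tissue replicate 1), Sprr2a1 at -3.45 ± 0.13, Sprr2a3 at -3.26 ± 0.26 and Sectm1b at -2.75 ± 0.28. Sprr2a1 and Sprr2a3 belong to a family of near-identical copies whose reads may be split between them, so their values are uncertain.

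Of the genes named here, 6 lost the call without tissue replicate 1: Clca4b at 2.58, Clca4a at 1.97, Prdx6 at -1.04, Cdkn1a at -1.03, Chgb at -3.25 and Reg4 at 2.91. Without tissue replicate 2 the call was lost for Clca4a at 2.42, Prdx6 at -1.70 and Reg4 at 2.27. At 5% mitochondrial UMIs it was lost for Clca4a at 1.23, Prdx6 at -1.31, Mki67 at 1.27, Cdkn1a at -0.97 and Reg4 at 2.52, and with thinned cells for Clca4b at 3.30 and Myc at 3.32. Without the library block it was lost for Clca4b at 3.60, Clca4a at 1.87, Chgb at -3.70 and Reg4 at 2.36, and with Krt20-0 cells matched on UMIs for Clca4b at 2.93. Without assembloid replicates 1 and 2 in turn Chgb was at -3.63 and -5.17 and Reg4 at 1.56 and 3.36, and without replicate 2 Clca4a was at 1.44 and Clca4b at 3.17. Without tissue replicate 2 Chgb was at -5.59 and Clca4b at 4.97.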

How the results depend on the processing

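The counts of genes called moved with the model, the libraries and the cells. With cells thinned to 2000 UMIs the Krt20 contrast in assembloids had 4147 genes, the comparison with tissue 4244 and the difference of contrasts 869, against 7106, 7294 and 2808. With at most 5% mitochondrial UMIs they were 4531, 4791 and 1352, and without the replicate block the first and the last were 3988 and 909. The 5% limit left only 139 and 91 tissue Krt20 cells, against 2179 and 853 of assembloids. Leaving out 1 library gave 6042 to 7561, 3059 to 7469 and 574 to 3550 genes, the lowest of the last 2 without tissue replicate 1 (without tissue replicate 2, 3539 and 1343). In those fits the lone library was assumed to vary like the other group's. DESeq2 called 4913, 6348 and 2257. A replicate block in the comparison with tissue gave 7565. Same-numbered libraries did not deviate together (r = 0.00144 over 14235 genes). With 2 libraries a group this cannot tell whether they shared an animal or a run, which the labels do not give.

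Of genes named in the text, 96 in the first comparison had 1536 values under alternatives, 1512 with the direction and call kept, 50 in the second 650 and 644, and 34 in the third 510 and 485. These alternatives include the fits without a library, where a kept call rests on a spread taken from the other group. Most of the remaining values kept direction and lost the call, 14 of them without the replicate block. With comparison cells under the members' limits the difference went from -1.23 to 0.013 for Id3, 2.56 to 0.042 for Reg4, 2.63 to 1.03 for Guca2b, 2.84 to 0.81 for Ndrg1, 3.91 to 1.93 for Muc4, 2.28 to 1.34 for Krt7 and 2.30 to 1.43 for Slc12a2. The calls of Id3 and Reg4 were lost, and so was that of Prdx6. Chgb, one of the genes that chose the enteroendocrine-like cells, went to 0.040 (adjusted p = 0.976) without them. With thinned cells the first comparison gave 3.64 for Aqp8, 3.81 for Tmigd1 and 3.20 for Creb3l3, the comparison with tissue 2.84 for Mki67, and the difference 3.46 for Cenpf, 4.25 for F3, 3.23 for Kcnn4 and -2.78 for Slc37a2. At 5% mitochondrial UMIs the difference was 1.51 for Cenpf, 3.61 for Guca2b, -5.69 for Chgb and 5.16 for Clca4b. The fibroblast gene sum of the comparison cells stands in the text, and its part was not tested.

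The mean share of Krt20 cells with a Car1 UMI was 87.7%, and 98.2% not thinned, 87.0% at 5% mitochondrial UMIs and 88.8% with at least 3 Krt20 UMIs. The share of Epcam cells in the gate, a mean of 16.0%, was 3.68% with at least 2 Krt20 UMIs after thinning. For Aqp8 the first share was 9.79%, 22.2% not thinned and 12.1% with at least 3 Krt20 UMIs, and for Mki67 6.41% and 23.8% not thinned. Depth, 2 libraries a group and 861 tissue cells limit what could be seen.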

Other observations

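Of 16 genes of retinoid and mucosal nutrient handling 9 were higher in Krt20 cells and 5 lower, with a median of 1.67. The meprin protease genes Mep1a and Mep1b were at 13.0 and 19.6 CPM against 2.81 and 2.95 (2.83 ± 0.20) and at 42.9 and 47.2 against 10.8 and 8.62 (2.58 ± 0.19). Slc40a1, the iron exporter ferroportin, was at 46.5 and 66.6 CPM against 15.0 and 19.5 (2.06 ± 0.14), and Slc6a14, an amino acid carrier, at 11.8 and 32.2 against 4.03 and 7.14 (2.25 ± 0.19). The retinaldehyde dehydrogenase gene Aldh1a1 rose by 2.24 ± 0.23, while Dhrs3, which turns retinaldehyde to retinol, was lower at -1.70 ± 0.15. Against Krt20-0 cells under the same goblet and collagen limits Dhrs3 was at -0.66. Against tissue, 9 of 15 were lower in assembloid Krt20 cells and 3 higher. Mep1a stood at 254 and 190.3 CPM and Slc6a14 at 432 and 487 CPM in tissue, differences of -3.32 ± 0.24 and -3.95 ± 0.43, the latter -4.79 without assembloid replicate 2.

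Small intestinal enterocyte genes were called higher in 4 of 11 and lower in 1, at low levels, with a median of -0.10. The number called was near the share of all 17301 genes, 41.1%, so the list as a whole did not stand out. The 2 genes given next were among its higher ones. The alkaline phosphatase gene Alpi was at 11.5 and 11.1 CPM in Krt20 cells against 1.31 and 0.491 (4.10 ± 0.41) and Rbp2 at 14.4 and 16.8 against 2.15 and 1.12 (3.61 ± 0.31). Without replicate 1 the changes were 4.90 and 4.31, and without replicate 2 3.35 and 2.96. Apob, of lipoprotein assembly, was at 1.40 and 0.653 CPM in assembloid and 58.8 and 31.6 CPM in tissue Krt20 cells (-4.99 ± 0.48, or -5.68 without assembloid replicate 1 and -3.90 with thinned cells). Sucrase-isomaltase, from Sis, was at 0.0358 and 0.327 CPM and did not pass the test with Krt20.

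Of 18 immediate early and stress genes 10 were higher in assembloid Krt20 cells and 2 lower (5 and 3 when scaled by library size, 11 and 0 with Krt20-0 cells under the members' limits), with Atf3 at 0.99 ± 0.11 and the phosphatase gene Dusp1 at 0.93 ± 0.10. Hspb1, a small heat shock protein, was lower with Krt20, at 158 and 134 CPM against 255 and 328 (-0.63 ± 0.12, or -0.29 and not past the threshold under those limits), and above the 6.39 and 4.13 CPM of tissue Krt20 cells (5.26 ± 0.26).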
